A study of Mus musculus with 16 samples.

Results

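The genes described are 10 uptake and efflux transporters of the mouse liver, namely Abcc2, Abcc3, Abcc4, Abcb11, Abcg5, Abcg8, Slc10a1, Slco1a1, Slco1a4 and Slco1b2. They were taken from the expression table by gene symbol, and all 10 were found among its 18209 genes with an identifier. A gene was tested when its normalized count, which is reads divided by the library's size factor, reached 10 in at least 4 libraries. This held for 15781 genes and for 9 of the 10 transporters, the exception being Slco1a1. RNA was sequenced from the livers of 16 mice at 20 days of age, labelled as male, with 4 mice per genotype. All 16 carried floxed alleles of Trsp, the gene of the selenocysteine tRNA. Mice of the genotype Trsp fl/fl were the controls. Trsp fl/fl::AlbCre mice carried in addition a Cre transgene driven by the albumin promoter, which deletes Trsp in hepatocytes, and are called Trsp knockout below. Animals of the genotype Keap1 C226S&C613S homo::Trsp fl/fl, called Keap1 mutant, had serine in place of the oxidative stress sensor cysteines Cys226 and Cys613 on both alleles of Keap1. The genotype Keap1 C226S&C613S homo::Trsp fl/fl::AlbCre, called compound mutant, joined both changes. The comparisons address whether transporter transcripts change when hepatocytes cannot make selenoproteins, and whether the change depends on these sensor cysteines.

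Hepatocytes take up bile acids, hormones and drugs from blood across the sinusoidal membrane and secrete them into bile across the canalicular membrane. Uptake is carried by solute carriers, of which the sodium-dependent Slc10a1 (NTCP) takes up conjugated bile acids and the Slco family (OATP) takes up a wide range of organic anions. Secretion is carried by ATP-binding cassette pumps. Abcb11 (BSEP) is the canalicular bile salt pump, Abcc2 (MRP2) exports glutathione and glucuronide conjugates into bile, and Abcg5 with Abcg8 form a single heterodimeric sterol pump. Abcc3 (MRP3) and Abcc4 (MRP4) sit on the sinusoidal side and return conjugates and bile acids to blood. Several MRP genes are known targets of NRF2, the transcription factor that KEAP1 holds down, and Abcb11 is a known target of the bile acid receptor FXR.

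Libraries held 11386715 to 19164113 recovered reads, and counting error was at most 0.04 on the log2 scale per genotype for 8 of the transporters, below their spread between mice. It was larger for the weakly expressed Abcc4 and Slco1a1. The table has no row for Trsp. Its loss was checked through Gpx1, Selenow and Selenoh, selenoprotein transcripts known to fall when selenocysteine cannot be inserted, which the study picked on these same samples. Gpx1 was at 13.09 to 14.2 in controls, 11.43 to 11.99 in the Trsp knockout, 13.34 to 13.95 in the Keap1 mutant and 11.5 to 11.85 in the compound mutant on the log2 scale, with differences of -2.11 (limma adjusted p = 6.2e-05) between the former and -1.84 (adjusted p = 0.00043) between the latter. Selenow was called lower in both comparisons (-1.39 and -1.15). Selenoh was at -1.42 and -0.95, with adjusted p-values of 0.054 and 0.18, and its libraries did not overlap in either. Albumin took between 4.86% and 10.75% of the reads. The compound mutant library labelled replicate 1 gave 28799 Xist reads, where all others gave 22 to 50, and 2 reads of 4 Y-linked genes, where the others gave 1830 to 3066, which goes against its label. It also had the lowest share of albumin reads and a summed normalized count of 3074 over 5 erythroid markers, the highest of all libraries, against a median of 702 in its genotype. Differences of transporters that involve the compound mutant are therefore given also without it where they are described. The mean log2 value of 6 hepatocyte markers (Alb, Apoa1, Ttr, Serpina1c, Cps1 and Ass1) was between 16.7 and 17.04 in the 12 libraries of the other genotypes. For the compound mutant it was 15.96, 16.77, 16.3 and 17.09 in replicates 1 to 4.

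Promoter sequence from RefSeq (GRCm38.p6) was at hand for 9 of the 10 genes, in 12 windows that run from 250 bases before to 50 bases after an annotated start. Abcc3 had no window. The windows were searched on both strands for TGACNNNGC, the core of the antioxidant response element that NRF2 binds, and for GTCANTGAC, the core of an inverted repeat bound by FXR. The first was present in 12.4% of all 32851 mouse windows and the second in 0.387%, and no stretch was counted under both. Among the transporters the first was found in 3 windows, both of Abcc4 and the one of Abcc2, and the second in none. These are shown because Abcc4 is the transporter with the largest change in the Trsp knockout and Abcc2 its canalicular relative, each as the 250 bases before the start, with the match in capitals. The stretch between the starts of Abcg5 and Abcg8 is shown because these genes are transcribed away from each other from starts 110 bases apart, on chromosome 17 at 84683011 and 84683121, and it is given in lower case since it holds neither motif. Abcg8 has a further annotated start at 84676302, inside Abcg5, which is also the start of its GENCODE gene. Seen from that start the printed stretch lies inside Abcg8.
Abcc4, start at the 5′ end of the gene, chr14:118706220-118706469, minus strand: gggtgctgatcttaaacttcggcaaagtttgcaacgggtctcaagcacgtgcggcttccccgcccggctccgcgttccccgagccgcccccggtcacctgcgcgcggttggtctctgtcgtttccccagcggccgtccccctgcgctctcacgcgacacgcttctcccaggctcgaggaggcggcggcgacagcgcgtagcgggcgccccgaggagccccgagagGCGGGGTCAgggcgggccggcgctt
Abcc4, start inside the gene, chr14:118676932-118677181, minus strand: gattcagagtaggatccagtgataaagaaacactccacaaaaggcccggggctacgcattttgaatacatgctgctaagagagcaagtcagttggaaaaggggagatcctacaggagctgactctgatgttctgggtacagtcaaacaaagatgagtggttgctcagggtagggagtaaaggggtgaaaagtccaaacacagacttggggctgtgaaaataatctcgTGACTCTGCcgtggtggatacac
Abcc2, chr19:43782058-43782307, plus strand: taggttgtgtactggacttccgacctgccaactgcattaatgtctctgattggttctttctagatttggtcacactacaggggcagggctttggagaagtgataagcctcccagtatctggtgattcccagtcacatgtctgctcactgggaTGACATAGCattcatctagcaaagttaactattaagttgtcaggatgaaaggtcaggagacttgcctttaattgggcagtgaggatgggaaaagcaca
Abcg5 and Abcg8, between the starts, chr17:84683012-84683120, plus strand: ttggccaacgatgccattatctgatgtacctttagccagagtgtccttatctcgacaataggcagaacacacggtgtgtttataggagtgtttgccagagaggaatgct
In the first Abcc4 sequence the match lies at position -25 from the start and reads on the opposite strand, in the second it lies at position -23, and in Abcc2 at position -98. These positions count from the RefSeq starts. In the GENCODE annotation Abcc2 starts at 43782192, inside the printed stretch and before the match, so its position of -98 holds for the RefSeq start only. A match of these letters describes the sequence only.

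The 10 transporters differed widely in level per length of transcript. On the scale of normalized count per kb of merged exon, Slc10a1 had the highest mean in controls with 3683 ± 996 (SD, n = 4), followed by Slco1b2 with 3215 ± 778 and Abcb11 with 1917 ± 587. Abcc2 stood at 1188 ± 439, Abcg5 at 849 ± 390.5, Slco1a4 at 669.8 ± 234 and Abcg8 at 626.5 ± 326. The sinusoidal pumps were lower, Abcc3 at 369.8 ± 180.5 and Abcc4 at 22.0 ± 7.6, and Slco1a1 was at 3.41 ± 2.94. Neighbours in this order overlapped in their range over the 4 mice except Slco1b2 and Abcb11, Abcc3 and Abcc4, and Abcc4 and Slco1a1. In the Trsp knockout the mean of Abcc3 was 1343 ± 481 per kb, between those of Abcg8 (1230.2 ± 614) and Abcg5 (1437.5 ± 781), while Abcc4 at 120.3 ± 38.4 was again the lowest but one.

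**Figure D1:**
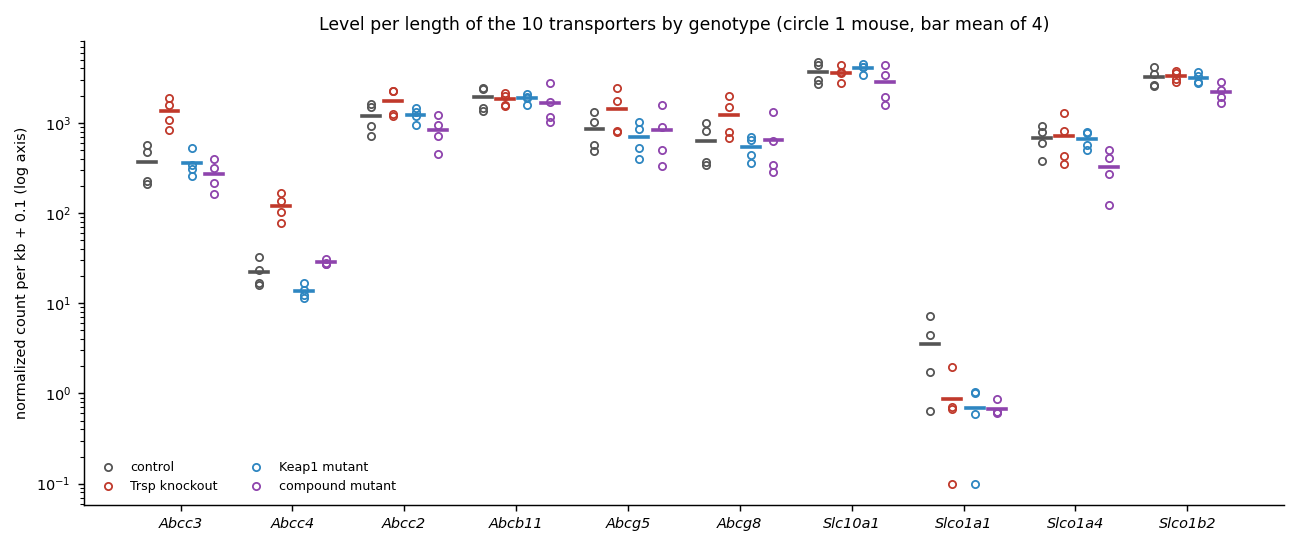
Normalized count per kb of merged exon, plus 0.1, on a log axis for each of the 10 transporters, with a circle per mouse and a bar at the mean of 4 mice per genotype. Abcc4 lies between 11.4 and 165 per kb, below the other pumps of the same genotype, and Slco1a1 lies at 7.12 or less in every library.

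Abcc4 showed the largest rise of the transporters in the Trsp knockout. The gene (ENSMUSG00000032849) lies at chr14:118482692-118706219 on the minus strand of GRCm38. Its normalized counts in controls were 100.9, 107, 206 and 148 in replicates 1 to 4, and in the Trsp knockout they were 1055, 868, 490 and 662. Every knockout library was above every control library. As log2(normalized count + 4), a scale that understates changes of weakly expressed genes, the mean rose from 7.12 ± 0.46 to 9.54 ± 0.48 (SD, n = 4 each). The log2 fold change was 2.42 (standard error 0.23, 95% interval 1.92 to 2.92, limma adjusted p = 5.1e-05), which is 5.35-fold. A transporter was called where the log2 fold change exceeded 1 in either direction and p, adjusted by Benjamini-Hochberg over all 15781 genes, was under 0.01, and by this rule Abcc4 alone was called in this comparison. At these thresholds 0.215% of all genes tested were called.

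In the Keap1 mutant Abcc4 had normalized counts of 78.3, 88.2, 107 and 72.6, and in the compound mutant of 172, 179, 174 and 196. The compound mutant libraries were above the Keap1 mutant libraries and below the Trsp knockout libraries without overlap in either case. They were also the tightest group of this gene, with an SD of 0.08 on the log2 scale against 0.23 to 0.48 in the other genotypes. At 184 to 203 reads per library the counting error alone is 0.1 there, and at 76 to 131 reads in the Keap1 mutant it is 0.14, so counting error is a large part of these SDs. The log2 difference of the compound mutant from the Keap1 mutant was 1.04 (standard error 0.23, 95% interval 0.54 to 1.53), but the limma adjusted p of 0.054 missed both thresholds used. Relative to the Trsp knockout it fell by 2.01 (standard error 0.23, limma adjusted p = 0.00015), 4.04-fold, and was called. Without the library that goes against its label these values were 1.06 (adjusted p = 0.11) and -1.99 (adjusted p = 0.00087). The knockout effect on the Keap1 mutant background minus that on the control background was -1.38 on the log2 scale (standard error 0.33, limma unadjusted p = 0.00075), which did not pass adjustment over all genes (limma adjusted p = 0.21), and -1.36 (adjusted p = 0.36) without that library. The Keap1 mutation alone gave a log2 difference of -0.63 from controls (95% interval -1.13 to -0.14, adjusted p = 0.41), with overlapping libraries.

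Abcc3, the other sinusoidal pump, passed only the looser threshold in the Trsp knockout, and not in every fit, and was called lower in the compound mutant relative to it. It lies at chr11:94343295-94392997 on the minus strand (ENSMUSG00000020865). Control livers had normalized counts of 1196, 1278, 2709 and 3244, and Trsp knockout livers of 10842, 8888, 4736 and 6140.1. The knockout libraries lay above all control libraries, although the control libraries themselves ran from 10.23 to 11.67 on the log2 scale. The log2 fold change was 1.92 (standard error 0.37, 95% interval 1.15 to 2.7, 3.79-fold), and its limma adjusted p of 0.022 passed 0.05 but not the 0.01 of the call. It no longer passed 0.05 when only these groups were fitted (adjusted p = 0.12), with the replicate block (0.071), or without control replicate 1 (0.092) or 2 (0.095) or Trsp knockout replicate 1 (0.087) or 2 (0.067). At an adjusted p under 0.05 without a limit on the fold change, 2 of the 9 transporters rose, Abcc3 and Abcc4, against 0.558% of all genes in either direction. The groups did not overlap for the same 2 transporters, and for 6.01% of all genes.

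In the compound mutant the normalized counts of Abcc3 were 916, 1816, 1237 and 2251, and in the Keap1 mutant 2998, 1732, 1949 and 1467. Compound mutant replicate 1 was below every control and Keap1 mutant library, and the other 3 overlapped with the control libraries. Relative to the Trsp knockout, Abcc3 fell by 2.31 (standard error 0.37, limma adjusted p = 0.0032), 4.95-fold, without overlap. Without the library that goes against its label it fell by 2.08 with an adjusted p of 0.014, which ends the call. The call was lost likewise without Trsp knockout replicate 1 or 2, or without compound mutant replicate 3, with adjusted p-values of up to 0.018 over all libraries left out. The knockout effect on the Keap1 mutant background was -0.42 (95% interval -1.2 to 0.36, adjusted p = 0.68), and -0.19 without the library that goes against its label. The difference between the 2 knockout effects was -2.34 (standard error 0.52, unadjusted p = 0.00037), the largest of the 9 transporters, with a limma adjusted p of 0.16, and -2.12 (adjusted p = 0.3) without that library.

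**Figure D2:**
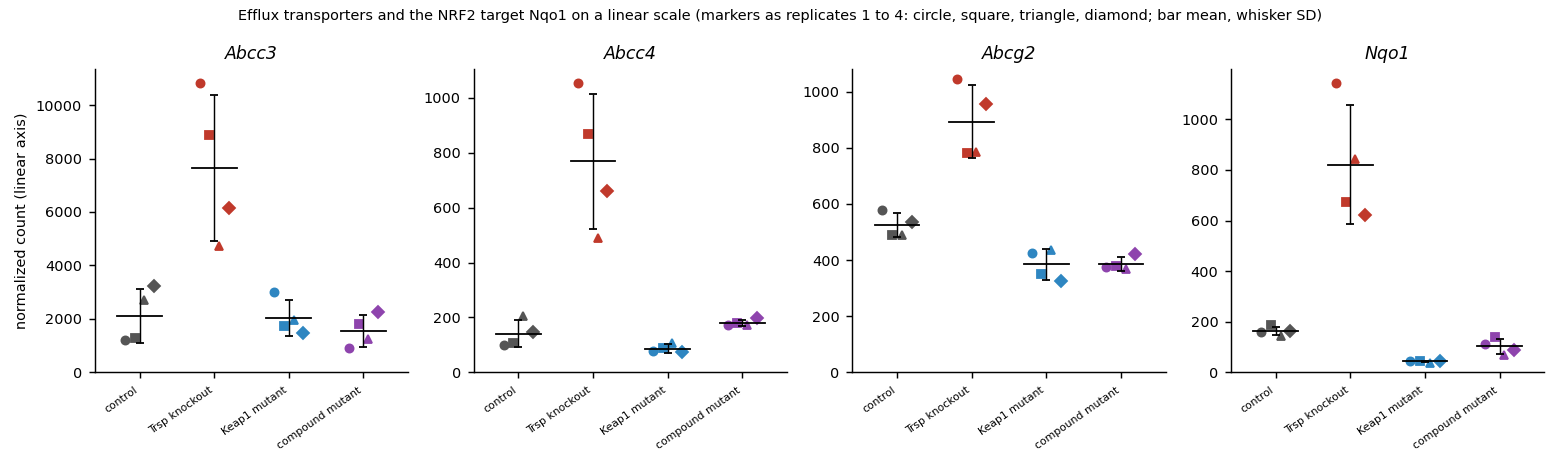
Normalized counts on linear axes that start at 0 for Abcc3, Abcc4, Abcg2 and the NRF2 target Nqo1 in each library, with the mean and SD of 4 mice per genotype. In each panel the 4 Trsp knockout libraries lie above every library of the other 3 genotypes.

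The canalicular pumps did not pass the test in the Trsp knockout. Abcc2 (ENSMUSG00000025194, chr19:43782192-43840740, plus strand) had log2 values of 12.59, 12.93, 13.63 and 13.76 in controls and 14.24, 14.22, 13.38 and 13.31 in the Trsp knockout. The knockout libraries split into a higher and a lower pair, and the lower pair lay within the control range. Its log2 fold change was 0.56 (95% interval -0.13 to 1.25, limma adjusted p = 0.56). Keap1 mutant libraries were at 13.59, 13.31, 13.45 and 12.97, and compound mutant libraries at 11.9, 12.97, 12.59 and 13.36. Against the Trsp knockout the compound mutant difference was -1.08 (95% interval -1.77 to -0.39, adjusted p = 0.099), and -0.81 without the library that goes against its label (adjusted p = 0.27).

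Within each library, Abcc3 was set against Abcc2 to see whether the sinusoidal and the canalicular MRP pump kept a fixed relation. The log2 value of Abcc3 minus that of Abcc2 was -2.32 ± 0.22 in controls, -0.96 ± 0.21 in the Trsp knockout, -2.39 ± 0.24 in the Keap1 mutant and -2.18 ± 0.11 in the compound mutant (SD, n = 4 each). The Trsp knockout libraries, at -1.16 to -0.73, did not overlap with the -2.6 to -2.04 of the other genotypes. For Abcc4 minus Abcc2 the corresponding means were -6.11 ± 0.29, -4.25 ± 0.24, -6.84 ± 0.26 and -5.18 ± 0.55. These differences are not corrected for transcript length, so only their change between genotypes can be read.

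Abcb11 (ENSMUSG00000027048, chr2:69238282-69342616, minus strand) gave no call between genotypes. Its log2 values were 13.59, 13.63, 12.88 and 12.77 in controls, 12.96, 12.97, 13.32 and 13.44 in the Trsp knockout, 12.98, 13.29, 13.23 and 13.38 in the Keap1 mutant and 12.34, 13.1, 12.54 and 13.8 in the compound mutant. All genotypes overlapped. The 4 log2 fold changes were between -0.28 and 0.01, with 95% intervals that reached from -0.86 to 0.59 and adjusted p-values of 0.71 or more. Without the compound mutant library that goes against its label the differences of that genotype were -0.08 from the Keap1 mutant and -0.03 from the Trsp knockout.

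Abcg5 (ENSMUSG00000040505, chr17:84658234-84683011, minus strand) and Abcg8 (ENSMUSG00000024254, chr17:84676302-84700333, plus strand) had like values over mice. Abcg5 was at 10.38, 10.59, 11.44 and 11.8 in controls, 12.21, 12.67, 11.07 and 11.11 in the Trsp knockout, 10.07, 10.47, 11.16 and 11.42 in the Keap1 mutant and 9.84, 11.23, 10.41 and 12.08 in the compound mutant, on the log2 scale. In each genotype the 2 mice with the highest Abcg5 were also the 2 with the highest Abcg8. The log2 value of Abcg8 minus that of Abcg5 was between -0.18 and 0.4 over the 16 libraries (mean 0.12 ± 0.18), while Abcg5 alone ran from 9.84 to 12.67. The annotated genes overlap on opposite strands between 84676302 and 84683011. The libraries were made with a directional kit, but how strand was used in the counting is not given in the sources used here, so the part of shared reads in their likeness was not tested. Both genes had wide spreads within genotypes, up to an SD of 0.98 for Abcg5 and 1.0 for Abcg8 in the compound mutant. In the Trsp knockout the log2 fold change was 0.71 (95% interval -0.33 to 1.75) for Abcg5 and 0.99 (95% interval -0.04 to 2.02) for Abcg8, with limma adjusted p-values of 0.62 and 0.48. The compound mutant differed from the Trsp knockout by -0.88 (adjusted p = 0.37) and -1.07 (adjusted p = 0.26). These became -0.52 (adjusted p = 0.68) and -0.76 (adjusted p = 0.54) without the library that goes against its label.

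**Figure D3:**
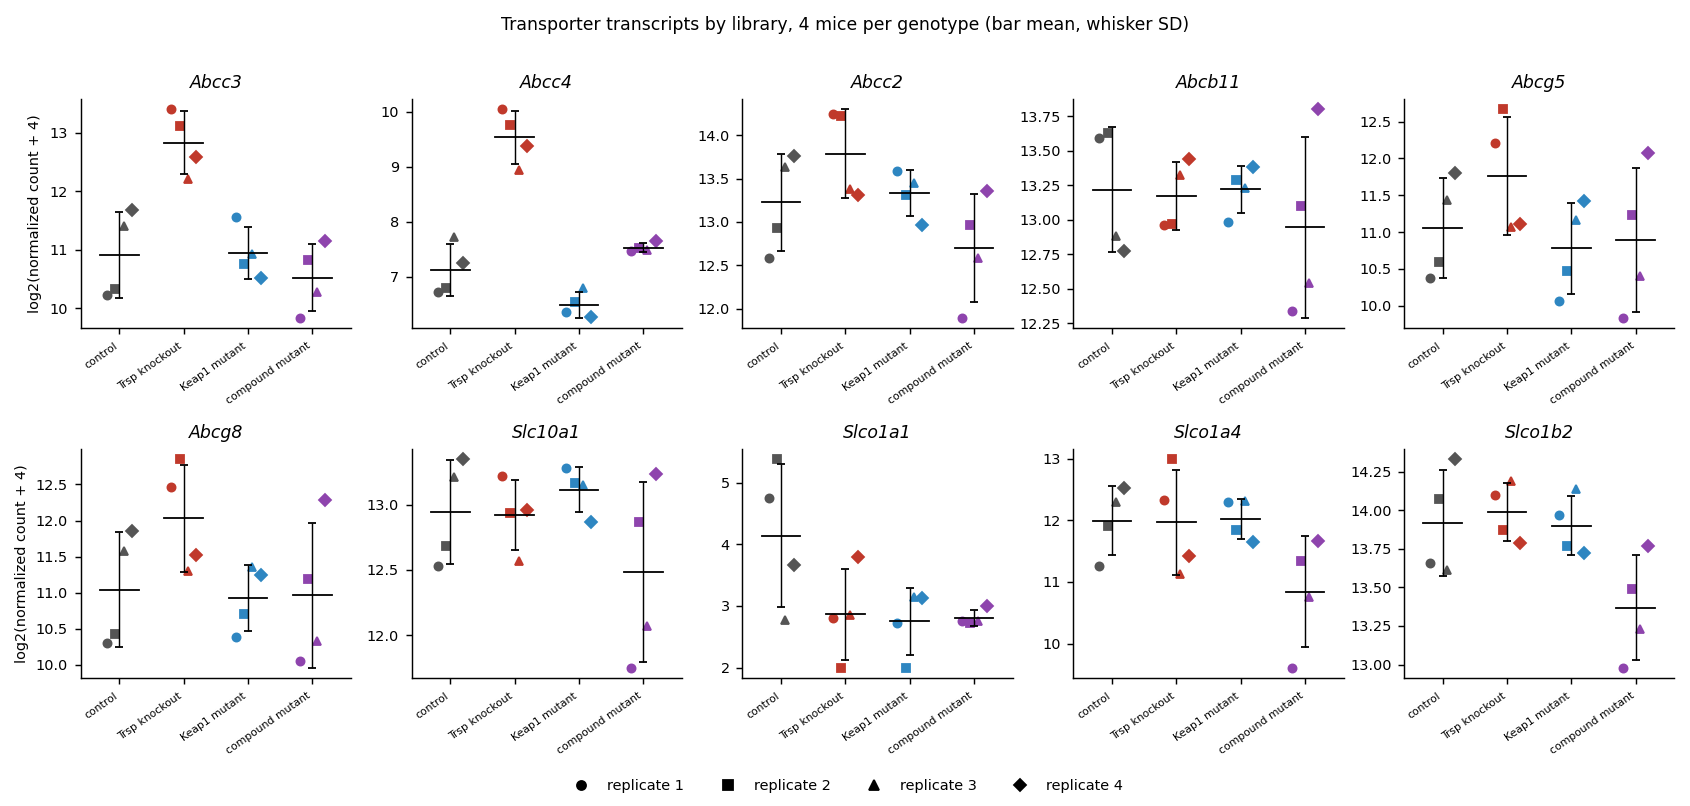
Log2(normalized count + 4) of the 10 transporters in each library, 4 mice per genotype, with marker shapes for replicates 1 to 4, a bar at the mean and a whisker of 1 SD. In the compound mutant the circle (replicate 1) is the lowest and the diamond (replicate 4) the highest point for the 9 transporters that were tested, while Abcc4 there spans 7.46 to 7.64 only.

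The uptake carriers gave no call in any comparison. Slc10a1 (ENSMUSG00000021135, chr12:80953183-80968705, minus strand) was at log2 values of 12.53, 12.68, 13.21 and 13.35 in controls, 13.22, 12.94, 12.57 and 12.96 in the Trsp knockout, 13.28, 13.17, 13.15 and 12.87 in the Keap1 mutant and 11.75, 12.87, 12.07 and 13.24 in the compound mutant. Its log2 fold change in the Trsp knockout was -0.02, with a 95% interval from -0.61 to 0.57. In the compound mutant relative to the Keap1 mutant it was -0.64 (unadjusted p = 0.035, limma adjusted p = 0.33), and -0.39 without the library that goes against its label.

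Slco1b2, Slco1a1 and Slco1a4 are neighbours on chromosome 6. Slco1b2 (ENSMUSG00000030236, 141629518 to 141686646, plus strand), the main hepatic OATP of the mouse, had the smallest spread of the uptake carriers, with SDs of 0.19 to 0.34. Its log2 values were 13.66, 14.07, 13.61 and 14.33 in controls, 14.1, 13.87, 14.19 and 13.79 in the Trsp knockout, 13.97, 13.77, 14.14 and 13.72 in the Keap1 mutant and 12.98, 13.49, 13.23 and 13.77 in the compound mutant. The compound mutant libraries were below every Trsp knockout library, if only just for replicate 4, and the difference of -0.62 (95% interval -1.03 to -0.21) had a limma adjusted p of 0.11. Relative to the Keap1 mutant the difference was -0.53 (adjusted p = 0.23). Leaving out the library that goes against its label gave -0.49 (adjusted p = 0.29) and -0.4 (adjusted p = 0.48).

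Slco1a4 (ENSMUSG00000030237, 141805440 to 141856199, minus strand) carries organic anions and cardiac glycosides. Its log2 values were 11.26, 11.9, 12.3 and 12.52 in controls, 12.33, 12.99, 11.13 and 11.42 in the Trsp knockout, 12.29, 11.84, 12.31 and 11.65 in the Keap1 mutant and 9.61, 11.34, 10.75 and 11.66 in the compound mutant. The lowest value of the gene was that of the compound mutant library that goes against its label. The differences of the compound mutant from the Keap1 mutant (-1.18, 95% interval -2.12 to -0.25, limma adjusted p = 0.24) and from the Trsp knockout (-1.13, adjusted p = 0.19) were -0.77 and -0.72 without that library.

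Slco1a1 (ENSMUSG00000041698, 141907282 to 141946962, minus strand) is known as a carrier of sulfated steroids and bile acids whose expression in mouse liver rises with male sexual maturation. At 20 days it was close to the limit of detection. Control libraries had 24, 33, 3 and 7 reads, Trsp knockout libraries 3, 0, 3 and 10, Keap1 mutant libraries 3, 0, 6 and 5, and compound mutant libraries 3, 3, 3 and 4. The higher values were those of control replicates 1 and 2, and the genotypes overlapped. It reached a normalized count of 10 in 2 of 16 libraries and was not tested, so at this depth nothing is said on differences between genotypes.

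As a list, the 9 tested transporters gave 1 called higher and 0 called lower in the Trsp knockout, with a median log2 fold change of 0.56 against -0.01 over all genes. For the compound mutant relative to the Keap1 mutant 0 were called by limma (4 had an unadjusted p under 0.05, and limma voom also called 0), with a median of -0.42. Without the library that goes against its label the median was -0.19 and 1 transporter, Abcc4, had an unadjusted p under 0.05. With scaling by the hepatocyte markers the median of the transporters was 0.03 and Abcc4 was called. That scaling also moved the median of all genes in this comparison from 0.0 to 0.449. With all 16 libraries and no such scaling, 0.171% of all genes were called and 0.798% passed an adjusted p of 0.05, where 0 transporters did. The groups did not overlap for 7.69% of all genes and for 1 transporter, Abcc4. In the Keap1 mutant relative to controls 0 were called (1 with an unadjusted p under 0.05, limma voom 0), 0 passed an adjusted p of 0.05 and 0 had groups that did not overlap, against 0.0127%, 0.0887% and 6.23% of all genes, and the median was 0.01. Apart from Abcc4 the log2 differences there were between -0.27 and 0.17. Of all 15781 genes, 1741 had an unadjusted p under 0.05 in the Trsp knockout and 1431 in the Keap1 mutant, each relative to controls. For the compound mutant 2146 did relative to the Keap1 mutant and 2777 relative to the Trsp knockout, and 1697 did for the difference of effects. The like counts of the gene lists below stand beside these.

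Relative to the Trsp knockout, the compound mutant had 2 transporters called lower, Abcc3 and Abcc4, and the same 2 at an adjusted p under 0.05, against 0.57% and 2.07% of all genes. The groups did not overlap for 3 transporters, Slco1b2 being the third, and for 8.61% of all genes. All 9 log2 differences were below 0, with a median of -1.07 (-0.72 without the library that goes against its label, where 1 was called), except that Abcb11 was at 0.09 when the libraries were scaled by the hepatocyte markers. In the same comparison 13 of 14 genes of bile acid synthesis and conjugation, 4 of 6 hepatocyte markers and 12 of 19 other transporters were below 0. For the difference between the knockout effects 0 transporters were called or passed an adjusted p of 0.05 (4 with an unadjusted p under 0.05, limma voom 0), against 0.057% and 0.0951% of all genes. All 9 estimates were below 0, from -2.34 to -0.23, but Abcb11 was at 0.02 with quantile normalization and at 0.25 with scaling by the hepatocyte markers. Also below 0 were 14 of 14 of those bile acid genes, 6 of 6 hepatocyte and 6 of 6 Kupffer cell markers. Of 19 other transporters 12 were below 0, of 16 regulators 13 and of 5 stellate markers 1. The median over all genes was 0.01 and 0.0 in the 2 comparisons. These comparisons share libraries with each other, so their values are given side by side only.

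**Figure D4:**
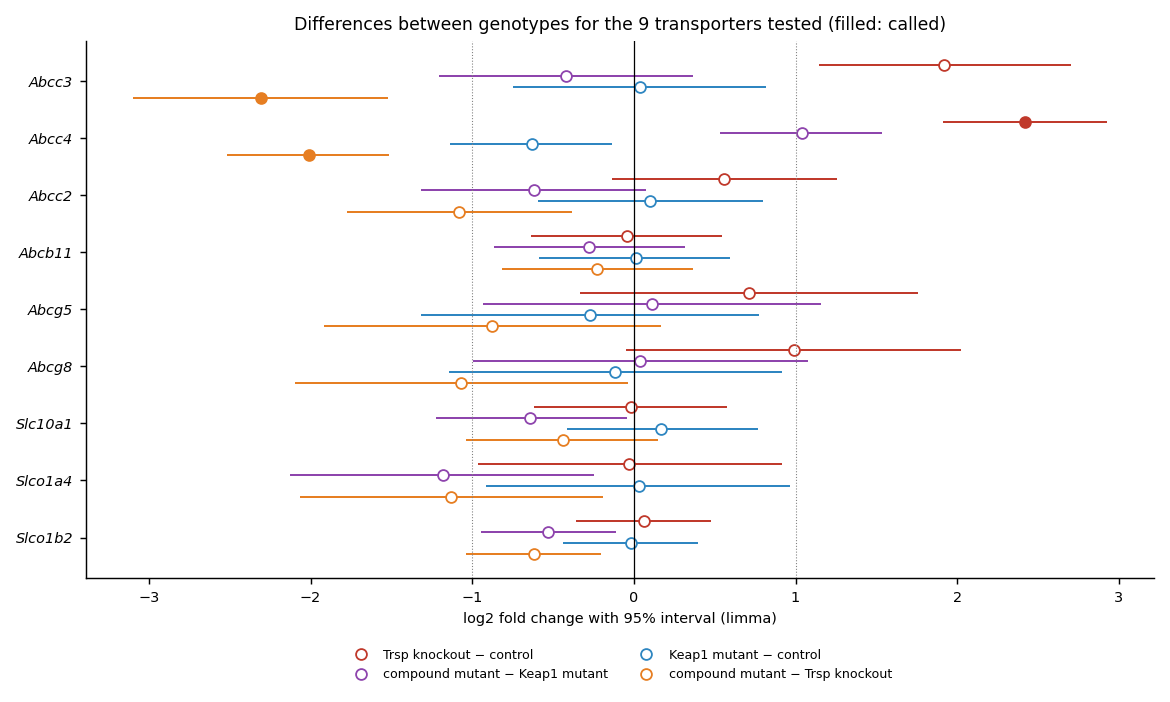
Log2 fold changes with 95% intervals from limma for the 9 tested transporters in 4 comparisons, filled where called. Filled points are Abcc4 in the Trsp knockout relative to controls (2.42) and Abcc3 (-2.31) and Abcc4 (-2.01) in the compound mutant relative to the Trsp knockout.

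The 9 tested transporters ranked the compound mutant libraries alike at both ends. Replicate 1 was the lowest and replicate 4 the highest library of that genotype for 9 of 9, whereas in the Trsp knockout no library was lowest for more than 6. The mean log2 value over the 10 transporters was 9.85, 10.73, 10.24 and 11.2 in compound mutant replicates 1 to 4, in the same order of libraries as the hepatocyte marker means given above. The regulators (9.84, 10.34, 10.06 and 10.44) and the other transporters (7.61, 7.8, 7.65 and 8.17) had that order too. The bile acid genes (10.99, 11.39, 10.95 and 11.83) did not. In each of the other genotypes the transporter and hepatocyte marker means ordered the libraries differently. In controls, replicate 1 was lowest and replicate 4 highest for 7 of 9 each, and Abcb11 ran the other way, with its higher values in replicates 1 and 2. In bulk tissue, fewer hepatocytes and less RNA per hepatocyte cannot be told apart. No hepatocyte marker was called in any comparison by limma or limma voom, and their median log2 fold change was -0.45 in the compound mutant relative to the Keap1 mutant and -0.36 relative to the Trsp knockout. Without the library that goes against its label these medians were -0.27 and -0.19. Of the markers of other cells, 0 of 5 cholangiocyte, 0 of 6 Kupffer cell, 0 of 5 sinusoidal endothelial, 0 of 5 stellate and 0 of 5 erythroid markers tested were called by limma in any comparison, and limma voom also called 0. An unadjusted p under 0.05 was found for at most 1 marker of a list per comparison, except for 3 erythroid markers in the Trsp knockout relative to controls. Their summed normalized counts were 404 to 701 for cholangiocytes, 2877 to 12175 for Kupffer cells, 5770.0 to 9167 for sinusoidal endothelium, 10848 to 19270.0 for stellate cells and 481 to 3074 for erythroid cells over all libraries. The part of cell composition in the transporter values was not tested.

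Other transporters of the liver were listed for comparison. Of 21 listed, 20 were in the table and 19 were tested, and 0 were called by limma in the Trsp knockout (1 with an unadjusted p under 0.05, limma voom 0). That one was Abcg2 (BCRP), a pump for drugs, porphyrins and sulfate conjugates. Its mean log2 value was 9.04 ± 0.12 in controls, 9.8 ± 0.21 in the Trsp knockout, 8.59 ± 0.2 in the Keap1 mutant and 8.6 ± 0.09 in the compound mutant (SD, n = 4 each). Its log2 fold change in the Trsp knockout was 0.76 (limma adjusted p = 0.0055), under the fold limit of the call, and the adjusted p was 0.051 with only these groups fitted and 0.27 with scaling by the hepatocyte markers. It was called lower in the compound mutant relative to the Trsp knockout with -1.19 (adjusted p = 3.8e-05), and with -1.18 without the library that goes against its label. The latter call was lost when the libraries were scaled by the hepatocyte markers (-0.88, adjusted p = 0.041), which moved the median of all genes to 0.318. A further 2 of the 19, named after their values were seen, passed an adjusted p of 0.05 but not of 0.01 in that comparison. Slc22a30 was at -2.5 (adjusted p = 0.041) and the organic anion carrier Slco2b1 at -1.66 (adjusted p = 0.046). Without the library that goes against its label their adjusted p-values were 0.13 and 0.14.

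Among 14 genes of bile acid synthesis and conjugation, 0 were called by limma in the Trsp knockout (3 with an unadjusted p under 0.05, limma voom 0). Cyp7a1, the rate-limiting enzyme of bile acid synthesis, was at -0.19 (adjusted p = 0.91), Cyp8b1, the sterol 12-hydroxylase, at 1.04 (adjusted p = 0.28) and Acox2, a peroxisomal oxidase of bile acid side chains, at 0.52 (adjusted p = 0.24). Cyp7b1, the oxysterol hydroxylase of the acidic pathway, was called lower in the compound mutant relative to the Trsp knockout, at -2.22 (standard error 0.28, limma adjusted p = 0.00028). Its mean log2 value was 6.67 ± 0.45 in controls, 7.84 ± 0.42 in the Trsp knockout, 6.1 ± 0.52 in the Keap1 mutant and 5.61 ± 0.19 in the compound mutant. Without the library that goes against its label the difference was -2.23 (adjusted p = 0.0014).

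**Figure D5:**
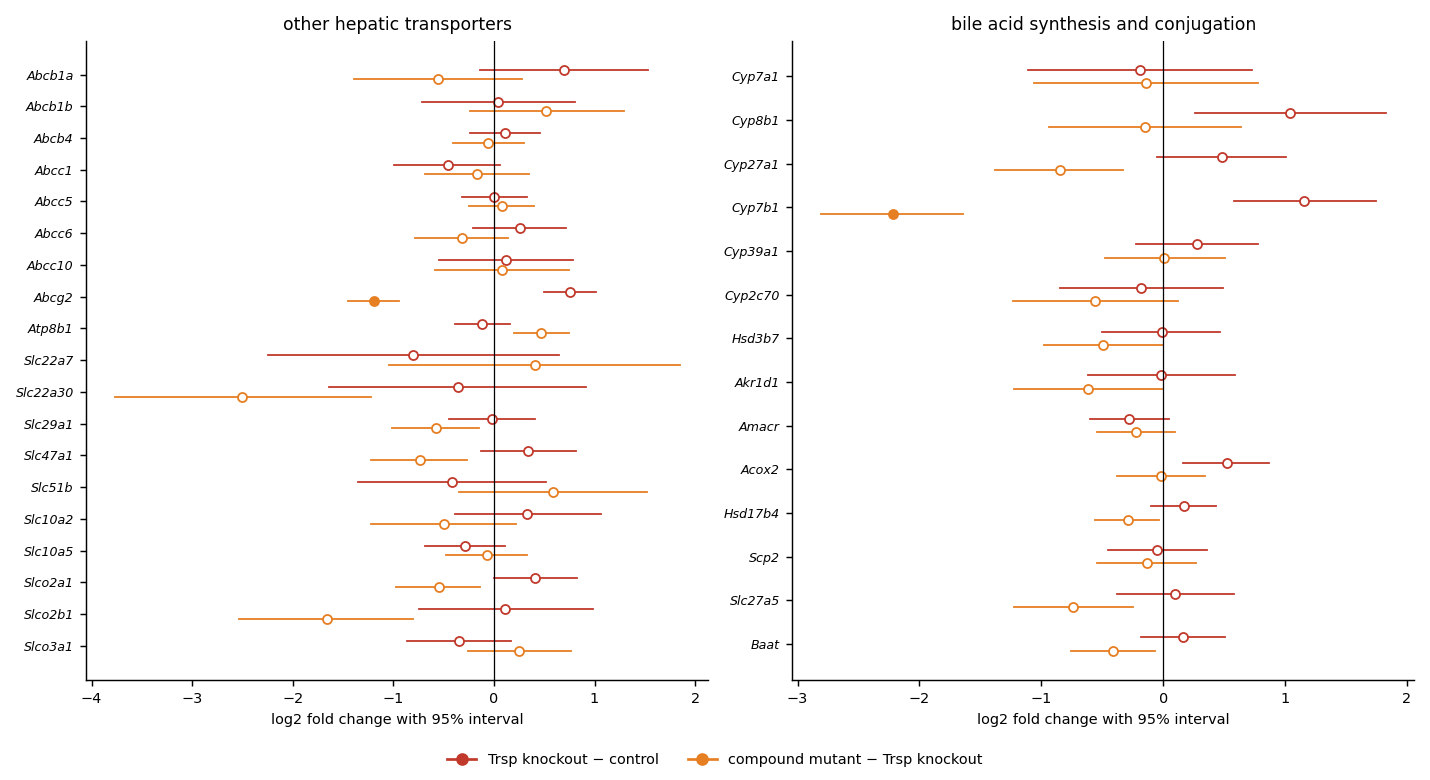
Log2 fold changes with 95% intervals for the 19 tested other hepatic transporters and the 14 genes of bile acid synthesis and conjugation, in the Trsp knockout relative to controls (red) and in the compound mutant relative to the Trsp knockout (orange), filled where called. The filled points are Abcg2 (-1.19) and Cyp7b1 (-2.22), both in the second comparison.

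Of 16 listed regulators of these transporters, such as the bile acid receptor FXR (Nr1h4), its target SHP (Nr0b2) and NRF2 itself (Nfe2l2), 0 were called by limma or limma voom in any of the 5 comparisons. Between 2 and 5 of them had an unadjusted p under 0.05, 2 in the Trsp knockout, where 1741 of all 15781 genes did. Nr1h4 was at 0.11 (adjusted p = 0.85), Nr0b2 at -0.37 (adjusted p = 0.77) and Nfe2l2 at -0.5 (adjusted p = 0.23) there. The smallest p in the Trsp knockout was that of Klb, the co-receptor of FGF15 signalling, at 0.63 (adjusted p = 0.19), and in the Keap1 mutant relative to controls that of Rxra, the partner of these nuclear receptors, at 0.48 (adjusted p = 0.25). Ahr, the dioxin receptor, named after its value was seen, was lower in the compound mutant relative to the Keap1 mutant at -0.59 (adjusted p = 0.049). It was at -0.13 (adjusted p = 0.6) after scaling by the hepatocyte markers, which moved the median of all genes to 0.449. With a library left out Ahr was at -0.66 to -0.51, with adjusted p-values of 0.024 to 0.14. Without the library that goes against its label 0 regulators passed an adjusted p of 0.05 in this comparison.

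The reference NRF2 target Nqo1 gives the scale of the pathway in these livers. Its mean log2 value was 7.37 ± 0.15 in controls, 9.65 ± 0.39 in the Trsp knockout, 5.55 ± 0.1 in the Keap1 mutant and 6.68 ± 0.43 in the compound mutant. It was called higher in the Trsp knockout (2.27, limma adjusted p = 3e-05) and lower in the compound mutant relative to the Trsp knockout (-2.96, adjusted p = 4.4e-07, and -3.03 without the library that goes against its label), as Abcc4 was. Relative to the Keap1 mutant, the compound mutant was at 1.13 for Nqo1 (adjusted p = 0.017, and 0.06 without that library), which was not called. Of 6 reference NRF2 targets 2 passed 0.05 there, Nqo1 and Srxn1 (0.74, adjusted p = 0.012), while Gstm1 was at 0.18 (adjusted p = 0.85). The difference between the knockout effects was -1.14 for Nqo1 (adjusted p = 0.24), against -1.38 for Abcc4 (adjusted p = 0.21). Unlike any transporter, Nqo1 was also called lower in the Keap1 mutant relative to controls (-1.82, adjusted p = 0.0015). Abcc4 was at -0.63 there and Abcc3 at 0.04. Nqo1 was the only 1 of the 6 reference targets called in that comparison, although all 6 were below 0. Gstm1 was at -1.48 (adjusted p = 0.084), Srxn1 at -0.59 (adjusted p = 0.12) and Gclc at -0.08 (adjusted p = 0.96). That Nqo1 call held in 14 of 16 fits with a library left out (adjusted p up to 0.012) and in 10 of 11 other alternatives (adjusted p up to 0.024). Among the 16 fits, those that omit a library of neither compared genotype can change only the adjusted p, not the fold change. Of the 6 reference targets, Nqo1, Srxn1 and Gstm1 were called higher in the Trsp knockout and lower in the compound mutant relative to it, while Gclm and Hmox1 were called in neither and Gclc passed only an adjusted p of 0.05 in the second (-1.21, adjusted p = 0.021). In the Trsp knockout the call of Gstm1 (1.96, adjusted p = 0.0033) held in 11 of 16 fits with a library left out (adjusted p up to 0.018) and in 9 of 11 other alternatives (adjusted p up to 0.012).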

How the data were processed

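Liver RNA of 16 mice was depleted of ribosomal RNA and sequenced with 150-base paired reads. The authors quantified transcripts with Salmon quant (Galaxy 1.5.1) against GENCODE mouse transcripts version 30, named TPM as the unit, and ran differential expression in iDEP. Their deposited table holds log2 values per gene and library, not TPM. It was found to be log2(reads divided by a size factor, plus 4), since whole reads came back for 100% of values up to 30 reads (tolerance 0.05 reads). The genome build is not given in the sources used here. Rows without an identifier (369 of 18578, at most 0.627% of the reads of a library) were left out.

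Samples were grouped by their titles, and every per-sample column was used. Genotype means were estimated from all 16 libraries at once, without covariates, by limma 3.58.1 (lmFit, contrasts and a trended eBayes, in R 4.3.3) on the deposited log2 values. A gene needed 4 libraries with a normalized count of 10 or more, which left 15781. TPM or log2 values had been planned for, and the log2 test was used. The call thresholds follow the study's methods. P-values measure the spread between these mice. The fit was also run on simulated reads with the same spread for all genes and changes planted in the Trsp knockout only. That setting is simpler than these data, so no conclusion is drawn from it. The members and gene lists were chosen with earlier results of these data known. A gene of the list of other transporters is not reported here. Named are the 10 members, list genes called in a comparison, up to 3 further genes per list with the smallest p in the Trsp knockout or Keap1 mutant relative to controls, and Nqo1. Outside this rule, Cyp7a1, Nr1h4, Nr0b2, Gclc, Gclm, Hmox1 and the selenoprotein transcripts are named for their known roles, and Slco2b1, Slc22a30 and Ahr after their values were seen. Lengths and positions come from the GENCODE annotation of GRCm38 and promoter windows from RefSeq, which may differ from the build of the authors. Alternatives were pseudocounts of 0.5 and 1, no filter or one at 50, quantile normalization, scaling by totals, the compared groups alone, no trend, limma voom, a block for replicate numbers, every library omitted in turn, an adjusted p of 0.05 and, added after the data were seen, scaling by the mean of 6 hepatocyte markers. Python 3.11.15 with pandas 2.3.3 and matplotlib 3.10.9 served for tables and plots.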

Additional observations from a re-analysis of the deposited data

Results flagged for a closer look

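Of 40 groups of 4 libraries, 10 transporters in 4 genotypes, 1 held a library that stood apart from the other 3, where 2 would be expected by chance at 1 in 20. It was Slco1a1 in the compound mutant, where replicate 4 had a log2 value of 3.0 against 2.73, 2.75 and 2.76 in the other libraries. The gap took a share of 0.878 of the range of the group. These values stand for 4 reads against 3 reads in each of the others.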

How the results depend on the processing

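Abcc4 was called in the Trsp knockout, and lower in the compound mutant relative to it, under every alternative run. The count of called transporters in the Trsp knockout was 1, or 2 (with Abcc3) at an adjusted p under 0.05 and with scaling by the hepatocyte markers (Abcc3 1.89, adjusted p = 0.0017). With that scaling, chosen after seeing the data, 1 transporter was called in the compound mutant relative to the Keap1 mutant (Abcc4, 1.49, adjusted p = 0.0087) in place of 0. Relative to the Trsp knockout the compound mutant had 2 called, 1 when only the compared groups were fitted and 1 with the replicate block (Abcc3 -2.31, adjusted p = 0.013 in both), and 1 to 2 with one library left out. It was 1 without Trsp knockout replicate 1 or 2 or compound mutant replicate 1 or 3. The replicate block changed no other call of a transporter, but Abcc3 in the Trsp knockout no longer passed an adjusted p of 0.05 with it (0.071). Correlations of deviations between mice of the same replicate number ran from -0.315 to 0.31, with 4 of 24 over 0.1. Mice of different numbers were not set beside them, so these values cannot decide whether replicate numbers pair the mice. For the Keap1 mutant relative to controls and for the difference between knockout effects 0 were called in every alternative.

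Of 1206 fold changes refitted, 1144 kept direction and side of the threshold. These include fits without a library of a genotype outside the comparison, where the fold change itself cannot move. Quantile normalization turned small values in the Trsp knockout (Slco1b2 -0.04), in the Keap1 mutant relative to controls (Abcb11 -0.03, Slco1a4 -0.02, Slco1b2 0.02) and in the difference of effects (Abcb11 0.02). Scaling by the hepatocyte markers turned Abcc3 (0.03) and Abcb11 (0.18) in the compound mutant relative to the Keap1 mutant, Abcc2 (-0.07), Abcc3 (-0.14), Abcb11 (-0.17), Slc10a1 (0.0) and Slco1a4 (-0.15) in the Keap1 mutant relative to controls, and Abcb11 relative to the Trsp knockout (0.09) and in the difference of effects (0.25). That scaling moved the median of all genes to 0.449, 0.318 and 0.49 in the 3 comparisons that involve the compound mutant and to -0.181 in the Keap1 mutant, and scaling by totals moved the former to 0.12, 0.128 and 0.128. Leaving out one library turned values near 0, which then ran in the Trsp knockout from -0.19 to 0.09 for Abcb11, -0.16 to 0.11 for Slc10a1, -0.37 to 0.25 for Slco1a4 and -0.04 to 0.2 for Slco1b2. In the compound mutant relative to the Keap1 mutant they ran from -0.29 to 0.46 for Abcg5 and -0.4 to 0.34 for Abcg8. In the Keap1 mutant relative to controls they ran from -0.11 to 0.28 for Abcc2, -0.19 to 0.29 for Abcc3, -0.14 to 0.14 for Abcb11, -0.36 to 0.16 for Abcg8, -0.22 to 0.2 for Slco1a4 and -0.13 to 0.11 for Slco1b2. The cause of these shifts was not tested. Over all genes the called counts were 34 in the Trsp knockout (28 to 38 over the alternatives, 30 to 36 with a library left out), 27 in the compound mutant relative to the Keap1 mutant (14 to 39, and 14 to 42), 90 relative to the Trsp knockout (46 to 95, and 50 to 178), 2 in the Keap1 mutant relative to controls (1 to 10, and 1 to 5) and 9 for the difference of effects (5 to 10, and 8 to 14). The counts at an adjusted p under 0.05 were 88 (44 to 93, and 47 to 108), 126 (73 to 523, and 40 to 381), 327 (144 to 516, and 130 to 1092), 14 (4 to 20, and 2 to 24) and 15 (7 to 16, and 10 to 43) in the same order. Scaling changed the split of higher and lower calls in the compound mutant relative to the Keap1 mutant from 11 and 16 to 19 and 13 by totals and 37 and 2 by the hepatocyte markers, relative to the Trsp knockout from 18 and 72 to 28 and 67 and to 21 and 48, and in the Keap1 mutant relative to controls from 1 and 1 to 1 and 2 and to 0 and 10.

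Depth limits Slco1a1, with at most 33 reads per library, and Abcc4 in the Keap1 and compound mutants, where its SDs of 0.23 and 0.08 stand beside counting errors of 0.14 and 0.1. For the other 8 transporters the spread between mice exceeded counting error. Over the 9 tested, standard errors were 0.19 to 0.49 in comparisons of 4 against 4.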
